A study of Mus musculus with 16 samples.

Results

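Open chromatin of wild-type round spermatids was set against that of wild-type Thy1+ spermatogonia, the latest and the earliest germ cells profiled in this mouse testis study. The assay was ATAC-seq, which reads accessible DNA from the places where a transposase can insert sequencing adapters, and the deposited measurement is a list of peaks for each library. All mice were C57BL/6. The Thy1+ spermatogonia came from the testis at postnatal day 7 with about 500000 cells per reaction, and the round spermatids came from adult testis with 1000000 cells per reaction, so that cell stage and age cannot be told apart. Fragments of 250 to 500 bp were read as single 75-bp reads. The other libraries of the series were from c-Kit+ spermatogonia of postnatal day 7, from adult pachytene spermatocytes (250000 cells) and from Scml2 knockout cells of all 4 stages, and they were used here only to follow the same regions elsewhere. How the cells were sorted, and whether the replicates were separate animals, is not stated in the sources used here.

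The comparison used 4 of 16 libraries: RS replicates 1 and 2 and Thy1 replicates 1 and 2. Peaks of chromosomes 1 to 19 were taken, and overlapping peaks of the 4 lists were merged into 174818 regions, beside 358583 regions when all 16 libraries were merged. A region or promoter was called RS-only when both RS lists and neither Thy1 list held a peak there, Thy1-only in the reverse case, and common when all 4 lists held one. A promoter is the DNA within 1 kb of a transcription start site (TSS). Where a list has no peak, the signal there stayed under the threshold of the authors' peak caller, which does not show that the DNA was closed, and in these bulk samples fewer cells of a type and less accessible DNA per cell cannot be told apart. Because the 4 lists differ in length, each count was made on the lists as deposited and again on lists of equal length, with the 30929 strongest peaks of each library.

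Spermatogonia are the dividing cells at the base of the seminiferous tubule, and the Thy1+ fraction of the young testis is known to be enriched in stem and progenitor cells. Round spermatids are the haploid cells that follow meiosis. They are known for transcribing genes of the acrosome, the sperm tail and the proteins that replace histones, first the transition proteins and then the protamines, before the nucleus condenses and transcription stops.

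The promoter sequences below are examples of low and high content of CpG dinucleotides, which are printed in capitals. Each is the strand of the gene, 5′ to 3′, from 250 bases before the RefSeq start to 50 bases after it (GRCm38.p6). Prm1, which encodes protamine 1, lies at chr16:10796774-10797073 on the minus strand and holds 1 CpG. Tnp1, for transition protein 1, lies at chr1:73015850-73016149 on the minus strand and holds 6, and Acrv1, for an acrosomal vesicle protein, lies at chr9:36692970-36693269 on the plus strand and holds 1. These 3 promoters were RS-only. The 2 Thy1-only promoters are those of Cxcr4, a chemokine receptor gene, at chr1:128592250-128592549 on the minus strand with 20 CpGs, and of Fkbp9, a prolyl isomerase gene, at chr6:56831809-56832108 on the plus strand with 23. Their ratios of observed to expected CpG, 0.767 and 0.774, lie above the upper quartile of the matched Thy1-only promoters (0.669), so they do not stand for that class. Bcl10, an adaptor protein gene at chr3:145924012-145924311 on the plus strand, stands for the common class and holds 26.
Prm1: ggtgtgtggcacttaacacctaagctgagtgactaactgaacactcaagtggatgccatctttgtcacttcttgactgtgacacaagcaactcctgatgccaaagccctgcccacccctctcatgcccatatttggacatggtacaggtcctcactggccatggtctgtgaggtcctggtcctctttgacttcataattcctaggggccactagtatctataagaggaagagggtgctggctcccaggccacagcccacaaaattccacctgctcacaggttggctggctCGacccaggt
Tnp1: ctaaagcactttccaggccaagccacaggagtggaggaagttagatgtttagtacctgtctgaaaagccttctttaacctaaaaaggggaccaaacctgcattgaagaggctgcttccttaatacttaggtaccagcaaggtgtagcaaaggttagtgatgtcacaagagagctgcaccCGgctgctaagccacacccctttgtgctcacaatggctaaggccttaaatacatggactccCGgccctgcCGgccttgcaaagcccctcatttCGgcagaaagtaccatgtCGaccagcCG
Acrv1: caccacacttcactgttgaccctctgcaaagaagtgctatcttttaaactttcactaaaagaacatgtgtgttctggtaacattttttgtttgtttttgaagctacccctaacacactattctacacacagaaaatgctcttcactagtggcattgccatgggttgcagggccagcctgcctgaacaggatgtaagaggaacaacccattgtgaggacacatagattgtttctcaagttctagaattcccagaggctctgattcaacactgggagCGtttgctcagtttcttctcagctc
Cxcr4: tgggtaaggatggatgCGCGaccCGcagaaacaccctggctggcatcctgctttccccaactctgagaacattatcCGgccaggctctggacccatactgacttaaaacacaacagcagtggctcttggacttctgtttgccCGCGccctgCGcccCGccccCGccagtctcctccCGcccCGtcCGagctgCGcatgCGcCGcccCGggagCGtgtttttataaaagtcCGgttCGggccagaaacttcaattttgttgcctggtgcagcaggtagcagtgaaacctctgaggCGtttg
Fkbp9: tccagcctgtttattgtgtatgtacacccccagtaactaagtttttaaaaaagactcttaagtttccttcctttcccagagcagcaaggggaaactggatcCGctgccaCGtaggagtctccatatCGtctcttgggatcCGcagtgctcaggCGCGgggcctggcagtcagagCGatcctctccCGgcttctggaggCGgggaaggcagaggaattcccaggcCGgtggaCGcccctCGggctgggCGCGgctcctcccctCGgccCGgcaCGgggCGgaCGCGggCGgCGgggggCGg
Bcl10: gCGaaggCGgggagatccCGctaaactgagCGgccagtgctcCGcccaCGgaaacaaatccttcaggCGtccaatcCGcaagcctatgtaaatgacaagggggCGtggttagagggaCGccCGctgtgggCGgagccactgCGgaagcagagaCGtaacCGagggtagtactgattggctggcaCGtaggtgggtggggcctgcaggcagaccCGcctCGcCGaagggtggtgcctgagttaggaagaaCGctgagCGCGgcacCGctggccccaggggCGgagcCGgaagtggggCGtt

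A pair of further RS-only promoters is shown for the heptamer GTTGCCA, a part of the X-box that RFX factors bind, which is printed in capitals. In 4933402J10Rik, at chr5:59985953-59986252 on the minus strand, it begins 220 bases before the start. In Actl7b, an actin-like gene of the sperm head at chr4:56741376-56741675 on the minus strand, it begins 17 bases before the start. The sequence match is a description and not a binding site.
4933402J10Rik: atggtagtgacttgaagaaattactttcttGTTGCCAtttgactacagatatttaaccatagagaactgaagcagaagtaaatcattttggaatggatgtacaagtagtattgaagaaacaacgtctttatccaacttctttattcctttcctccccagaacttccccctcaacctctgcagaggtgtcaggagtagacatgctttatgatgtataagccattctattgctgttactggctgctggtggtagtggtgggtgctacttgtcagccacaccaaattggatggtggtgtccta
Actl7b: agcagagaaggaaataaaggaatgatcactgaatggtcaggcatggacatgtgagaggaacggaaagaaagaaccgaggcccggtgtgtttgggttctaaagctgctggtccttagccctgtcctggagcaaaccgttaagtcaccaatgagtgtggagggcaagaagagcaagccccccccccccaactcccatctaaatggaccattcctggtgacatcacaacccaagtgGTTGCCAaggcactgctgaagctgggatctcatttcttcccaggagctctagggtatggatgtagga

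The lists held 51945 and 30929 autosomal peaks in RS replicates 1 and 2, and 132760 and 73211 in Thy1 replicates 1 and 2. The number of reads behind them is unknown, since the files give none. Fold enrichment is the authors' own value for each peak over its local background and serves to describe and rank peaks within a list. Folds of different libraries are set side by side below as deposited values, and their scale was not equalized between libraries. Its median was 4.98 and 5.26 in the RS lists and 5.43 and 5.45 in the Thy1 lists. The highest value was 82.5 and 68.4 in RS, and 89.2 and 99.8 in Thy1. At equal length the weakest peak kept had a fold of 4.43 and 3.38 in RS against 8.44 and 6.00 in Thy1, so the equal-length lists reach different depths of enrichment in the 2 stages.

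Both stages had regions that the other lacked, and the common regions were mostly promoters. As deposited, 7858 regions were RS-only, 4.49% of all, 41621 were Thy1-only (23.8%) and 11729 were common (6.71%). At equal length there were 7970 RS-only (12.2%), 10813 Thy1-only (16.5%) and 9491 common regions (14.5%) of 65366. Thy1-only regions thus outnumbered RS-only regions both ways, by less at equal length. This order holds for regions with a peak in both replicates of a stage. At equal length 9356 and 9888 regions were in RS replicate 1 or 2 alone, against 7303 and 6576 in Thy1 replicate 1 or 2 alone. The classes leave these out, and they leaned to RS. Thy1 replicate 1 alone held 67339 regions that no other list had, 38.5% of all as deposited. With RS replicate 1 left out the RS-only count was 15233, with RS replicate 2 left out it was 28802, and with Thy1 replicate 2 left out the Thy1-only count was 110748. In these cases 1 library alone stands for its stage. A comparison of 2 libraries with 2 cannot give a two-sided exact p below 0.33, so these counts carry no test.

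Libraries of 1 stage resembled each other more than libraries of the other stage. At equal length the share of overlapping regions among all regions of a pair (Jaccard index) was 0.445 for the RS pair and 0.594 for the Thy1 pair, against 0.223 to 0.239 for the 4 pairs across stages. As deposited the values were 0.365, 0.423, and 0.0970 to 0.170 across stages.

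The 2 separated classes lay mainly far from genes' starts, as did the regions as a whole, of which 13.0% touched the 1-kb window of a TSS and 68.4% lay over 10 kb from any. Of the RS-only regions, 716 (9.11%) were at a TSS and 6018 (76.6%) over 10 kb away. Of the Thy1-only regions the numbers were 3781 (9.08%) and 30211 (72.6%). The common regions reversed this, with 9164 (78.1%) at a TSS and 1691 (14.4%) over 10 kb away. RS-only regions were farther from the nearest TSS (median 47.8 kb) than Thy1-only regions (30.9 kb), and more of them were intergenic in the authors' annotation (45.8% against 35.8%) and fewer intronic (29.9% against 37.7%). The medians at equal length were 42.0 and 23.6 kb. Common regions were long, with a median of 1102 bp, beside 352.5 bp for RS-only and 377 bp for Thy1-only regions. They covered 13.8 Mb, RS-only regions 3.31 Mb and Thy1-only regions 18.4 Mb.

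The strongest peaks of all 4 libraries were mostly common. In the lists of equal length, the top 10% by fold was common in 86.9% of the 3010 peaks of RS replicate 1 (95% Wilson interval 85.6 to 88.0) and in 85.4% (84.1 to 86.6) in RS replicate 2. In Thy1 it was common in 91.9% (90.9 to 92.8) and 93.0% (92.0 to 93.8). Peaks of the own stage alone made up 12.3% and 13.8% of that top 10% in RS, and 4.47% and 3.22% in Thy1. This order of the stages did not hold in the lists as deposited. There the common share of the top 10% was 84.4% and 87.3% in RS and 61.5% and 84.4% in Thy1 replicates 1 and 2. The own-stage share was 13.8% and 11.3% in RS, between the 27.8% and 8.77% of Thy1 replicates 1 and 2. Thy1 replicate 1, with the longest of these lists, stood apart from the other libraries in both shares. At equal length own-stage peaks were most frequent in the middle of the lists, at 40.4% and 45.7% between the 60th and 70th percentile in RS and at 51.8% and 54.4% between the 50th and 60th in Thy1.

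**Figure D1:**
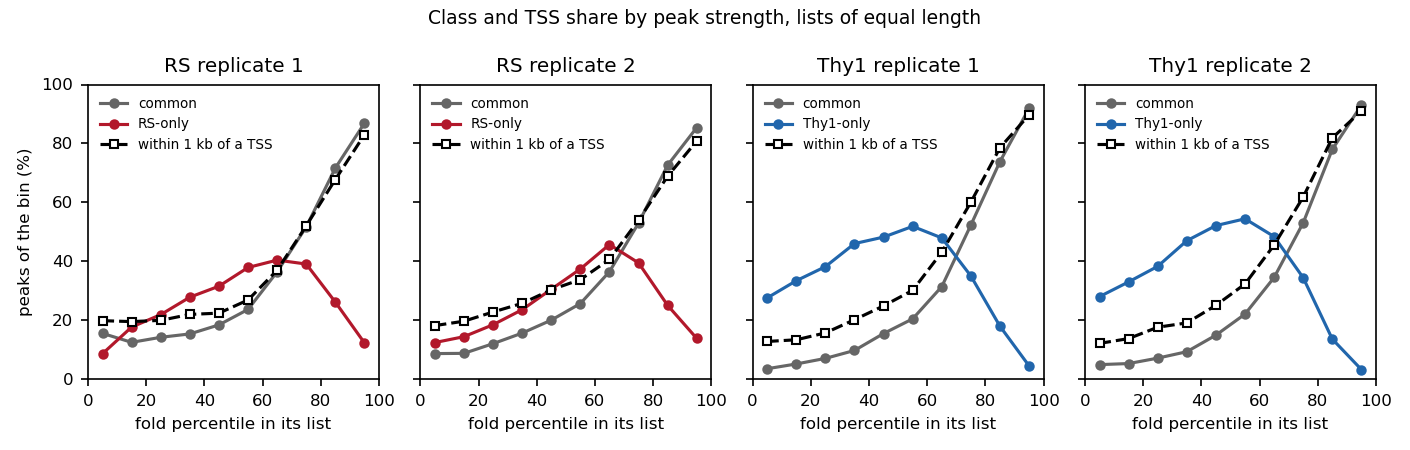
Share of peaks in % (y axis) by fold percentile within the list (x axis, bins of 10 points) for the 4 wild-type libraries at equal length, as common peaks, peaks of the own stage alone and peaks within 1 kb of a TSS. In each library the common share is highest in the strongest bin, at 85.4% to 93.0%, and the own-stage share peaks near the middle. The weakest bins hold mostly peaks of neither class, which are not drawn. The weakest bin of RS replicate 1 holds only 116 peaks because of ties.

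Promoters of 20510 autosomal genes could be placed. As deposited, 480 were RS-only (2.34%), 2284 Thy1-only (11.1%) and 10258 common (50.0%), while 4152 had no peak in any of the 4 lists. At equal length 803 were RS-only (3.92%), 1533 Thy1-only (7.47%) and 9246 common (45.1%). Of the 480 RS-only promoters, 429 were RS-only in both versions, and of the 2284 Thy1-only promoters 1214 were Thy1-only in both. At equal length, 234 promoters that had been common became RS-only, since their Thy1 peaks stood below the strongest 30929. RS replicate 2 lost no peak at this length, so the reverse move could not occur. With RS replicate 2 left out, so that replicate 1 alone stands for its stage, 788 promoters were RS-only as deposited. As a reference for the promoter folds given next, the median over all genes with a promoter peak was 11.6 and 8.64 in RS replicates 1 and 2 and 18.7 and 15.3 in Thy1 replicates 1 and 2.

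The strongest RS-only promoters, taken by the lower of the 2 within-list fold percentiles, belonged largely to genes known only by their cDNA clone names. Kif2b, a kinesin gene (TSS at chromosome 11, position 91577555), had folds of 33.2 and 24.8 in RS replicates 1 and 2. The uncharacterized gene 1700054M17Rik on chromosome 2 had 24.4 and 32.7, and Scp2d1, which encodes a protein with a sterol carrier domain (chromosome 2, position 144823666), had 19.9 and 19.9. Gm1564, also named Meioc and needed for meiotic prophase (chromosome 11, position 102665585), had 20.5 and 13.1. Gsg1, a germ cell gene (chromosome 6, position 135247884), had 21.0 and 15. All 15 of these promoters also had a peak in at least 1 wild-type pachytene spermatocyte library, and 14 of them, all but Gsg1, in both. In the Scml2 knockout round spermatids 14 of these 15 strongest had a peak in both libraries, against 55.2% of all RS-only promoters, and 4933402J10Rik had it in 1. Kif2b and Gm1564 were each listed in 1 library of the knockout Thy1+ cells and in 1 of the wild-type c-Kit+ cells.

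The strongest Thy1-only promoters included those of genes with known roles outside the testis. Zfp760, a zinc finger gene (chromosome 17, position 21707741), had folds of 46.4 and 42.0 in Thy1 replicates 1 and 2. Gstm1, a glutathione transferase gene (chromosome 3, position 108017973), had 44.0 and 39.3, and Ldhb, for the B subunit of lactate dehydrogenase (chromosome 6, position 142507943), had 40.4 and 38.2. Fkbp9, shown above, had 40.4 and 37.6, and Pdk4, a kinase gene that restrains pyruvate dehydrogenase, had 39.8 and 33.3. Ikzf2, a lymphoid transcription factor gene (chromosome 1, position 69685960), had 33.8 and 32.2, and Vcan, for the matrix proteoglycan versican (chromosome 13, position 89742512), had 31.4 and 36.0. The promoter of Mir17, a microRNA of a cluster known in cell proliferation, had 38.6 and 39.8. All 15, picked as the strongest, had a peak in both knockout Thy1+ libraries, as had 75.5% of all Thy1-only promoters. In the knockout round spermatids, whose replicate 1 has the longest list of the series, 6 of the 15 had a peak in both libraries, 6 in 1, and Trim12c, Ikzf2 and Vcan in none.

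**Figure D2:**
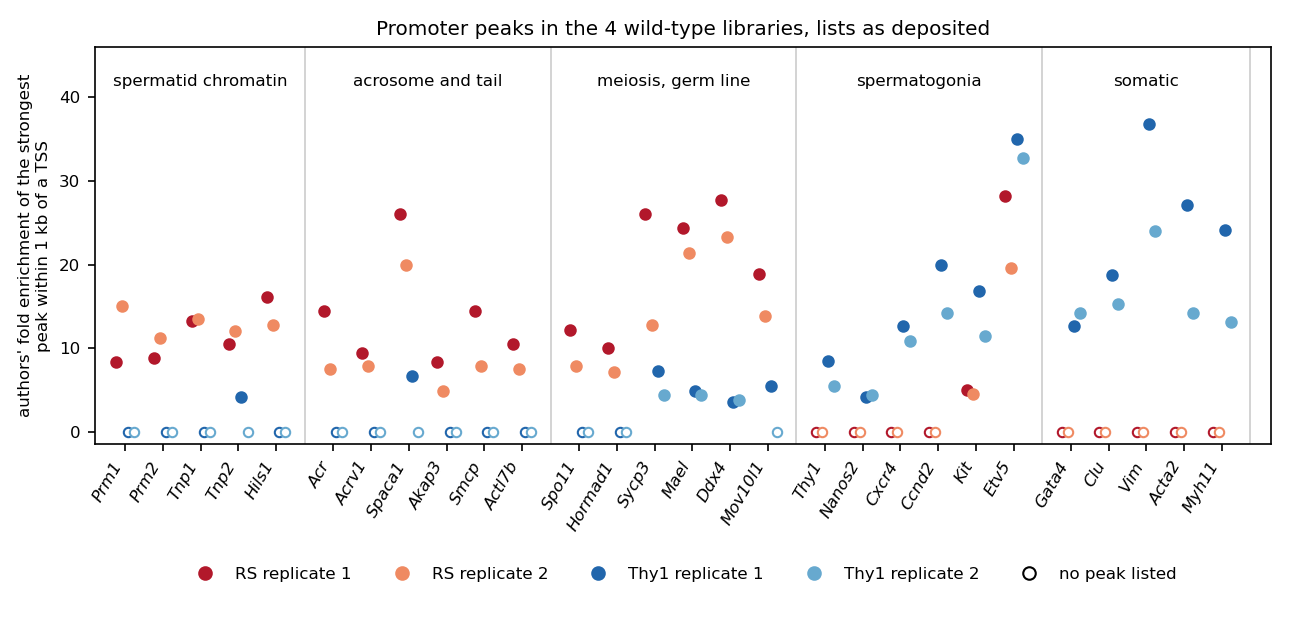
Authors' fold enrichment (y axis) of the strongest peak within 1 kb of a TSS for 28 genes in 5 groups (x axis), 1 point per wild-type library, with open points where no peak was listed; the genes were picked after their values were seen. Prm1, Prm2, Tnp1, Hils1, Acr, Acrv1, Akap3, Smcp, Actl7b, Spo11 and Hormad1 have peaks in the RS libraries alone, and Thy1, Nanos2, Cxcr4, Ccnd2, Gata4, Clu, Vim, Acta2 and Myh11 in the Thy1 libraries alone.

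To see which functions the separated promoters covered, gene lists were counted by class. The protein genes of the spermatid nucleus fell on the RS side. Of 15 genes of spermatid chromatin, 10 were RS-only, 5 common and none Thy1-only at equal length, against 3.92% RS-only among all promoters. As deposited 7 were RS-only and 6 common. Prm1 had folds of 8.31 and 15 in RS replicates 1 and 2, and Tnp1 had 13.3 and 13.5. The protamine gene Prm2 and its neighbour Prm3, whose windows overlap and whose values are equal, had 8.86 and 11.3. The linker histone genes Hils1 and H1fnt had 16.1 and 12.8, and 7.75 and 6.76. None of these had a peak in a Thy1 library. Tnp2, for transition protein 2, had 10.5 and 12 in RS and 4.22 in Thy1 replicate 1, and was RS-only at equal length only. Prm1, Prm2, Prm3 and Tnp2 lie together on chromosome 16, between positions 10788655 and 10796823, and are not independent observations.

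Genes of the acrosome, the membrane-bound cap that carries enzymes for fertilization, followed with 9 RS-only, 1 Thy1-only and 6 common promoters of 22 at equal length, and 7, 2 and 7 as deposited. Of all promoters, 3.92%, 7.47% and 45.1% were in these classes at equal length, and 2.34%, 11.1% and 50.0% as deposited. These shares are also the reference for the lists that follow. Acr, which encodes the protease acrosin, had folds of 14.4 and 7.51 in RS, and Acrv1 had 9.41 and 7.89. Spaca3, Spaca7 and Izumo3, which encode further proteins of the acrosome, had 6.09 and 3.76, 4.98 and 5.26, and 7.75 and 6.01. Adam2, for the fertilin beta subunit, went the other way with 8.44 and 3.27 in Thy1 and no peak in RS.

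The sperm tail and head list gave 15 RS-only, 1 Thy1-only and 9 common promoters of 33 at equal length, and 8, 0 and 17 as deposited. Akap3, a scaffold gene of the fibrous sheath, had 8.31 and 4.88 in RS. Capza3, for a capping protein of actin, had 13.3 and 8.64, and the actin-like genes Actl7a and Actl7b had 9.41 and 6.01, and 10.5 and 7.51. Oaz3, a testis antizyme gene, had 6.09 and 6.39, and Ropn1, for a protein of the fibrous sheath, had 8.86 and 4.88. The Thy1-only gene at equal length was Meig1. In the list of CatSper channel subunits and testis kinases, 8 of 23 were RS-only and 2 Thy1-only at equal length, and 4 and 2 as deposited. The Thy1-only share at equal length, 8.70%, was near the 7.47% of all promoters. The serine kinase genes Tssk1 and Tssk2 had 10.5 and 5.26, and 9.41 and 5.26 in RS, and the glycolytic sperm gene Gapdhs had 6.09 and 5.26. Catsperg2, for a channel subunit, and Slc2a3, for a glucose transporter, were Thy1-only with 9.65 and 7.09, and 8.44 and 6.54.

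Several regulators of the spermatid programme were open in both stages. Of 19 such promoters, 6 were RS-only and 10 common at equal length, and 2 and 13 as deposited, with none Thy1-only. Crem, for the activator of many spermatid genes, had folds of 21.0 and 17.7 in RS and 42.8 and 34.9 in Thy1. Rfx2, for the RFX factor of round spermatids, had 36.0 and 30.4 in RS and 45.2 and 33.8 in Thy1, and Rfx3 had 23.8 and 20.3, and 33.8 and 28.4. By contrast Piwil1, the Piwi gene of pachytene cells and round spermatids, was listed in RS alone with 8.86 and 6.76, and so was Spz1, a testis leucine zipper gene, with 7.75 and 10.5.

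Among meiotic and germ-line genes, none was Thy1-only at equal length, beside 7.47% of all promoters. Of 36 meiotic prophase genes, 14 were RS-only and 14 common at equal length, against 5 and 25 as deposited. Spo11, for the enzyme that makes meiotic DNA breaks, had 12.2 and 7.89 in RS and no Thy1 peak. The synaptonemal complex genes Syce1 and Tex12 had 14.4 and 8.26, and 9.97 and 9.39, and Hormad1, for an axis protein, had 9.97 and 7.14, again in RS alone. Dmc1, for the meiotic recombinase, had a peak in all 4 lists, with 16.1 and 11.6 in RS and 5.43 and 4.91 in Thy1.

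Among 24 germ cell identity genes, 10 were RS-only at equal length and 0 as deposited. The difference came from weak Thy1 peaks. Ddx4, for the germ cell RNA helicase, had folds of 27.7 and 23.3 in RS and 3.62 and 3.82 in Thy1, and Mael, for a piRNA pathway protein, had 24.4 and 21.4 against 4.82 and 4.36. Mov10l1, for the helicase of the same pathway, had 18.8 and 13.9 in RS and 5.43 in Thy1 replicate 1. All 3 promoters were therefore detected in spermatogonia, though low in the lists. Dazl, for a germ cell RNA-binding protein, was high in all 4 with 23.3, 17.7, 28.9 and 21.3. Piwil4 was Thy1-only as deposited, with 4.82 and 3.82.

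No gene of the stem and progenitor list was RS-only as deposited, but only 2.34% of all promoters were, so this does not set the list apart. Of its 36 genes, 7 were Thy1-only and 14 common, beside 11.1% Thy1-only among all promoters. At equal length Cxcr4, for a chemokine receptor of these cells, was the 1 Thy1-only gene (2.78%, against 7.47% of all promoters) and Shisa6 the 1 RS-only gene. Cxcr4 had folds of 12.7 and 10.9 in Thy1. Thy1, the gene of the surface protein that names the fraction, had 8.44 and 5.45, and Nanos2, for an RNA-binding protein of stem cells, had 4.22 and 4.36. None of the 3 had a peak in RS. Utf1, Eomes and Lhx1, known from undifferentiated spermatogonia, had 5.43 and 4.91, 5.43 and 4.91, and 7.24 and 4.91 in Thy1 alone. Etv5, for a factor of stem cell renewal, was open in all 4 with 28.2, 19.5, 35.0 and 32.7. Nanos3 and Pou5f1 had no peak in any of the 4.

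Of 20 genes of differentiating spermatogonia, 4 were Thy1-only and 1 RS-only as deposited, and 3 and 3 at equal length. Among all promoters the shares were 11.1% and 2.34% as deposited, and 7.47% and 3.92% at equal length. With so few genes, these counts do not set the list apart. Ccnd2, for cyclin D2, had 19.9 and 14.2 in Thy1 and no RS peak, and Rarb, a retinoic acid receptor gene, had 13.3 and 11.5. Upp1, for uridine phosphorylase, had 21.1 and 9.82. The RS-only gene was Dmrtb1, for a regulator of the entry into meiosis, with 7.75 and 5.64 in RS. Kit, for the receptor that marks differentiation, was open in all 4, with 4.98 and 4.51 in RS and 16.9 and 11.5 in Thy1.

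Some Hox and developmental regulator genes were Thy1-only. Of 81 genes, 23 (28.4%) were Thy1-only, 12 common and 0 RS-only as deposited, and 16 (19.8%), 8 and 1 at equal length, where 7.47% of all promoters were Thy1-only. Hoxa5, Hoxa7 and Hoxb4, homeobox genes of body patterning, had weak peaks of 7.84 and 4.91, 6.03 and 3.27, and 6.03 and 5.45 in Thy1, and so did Hoxc4 with 7.84 and 4.36. Stronger ones were at Pax6, an eye and brain regulator, with 20.5 and 18.5, and Tbx3, a T-box gene, with 24.7 and 15.8. At Gata3 the folds were 36.8 and 33.3 in Thy1, against 4.43 in RS replicate 1 and no peak in RS replicate 2. The RS-only gene at equal length was Hoxd8.

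Markers of the testis' somatic cells had promoter peaks more often in Thy1 than in RS. So did promoters in general, with 74.7% and 69.8% in the Thy1 libraries and 60.8% and 56.8% in the RS libraries. Of 21 Sertoli cell markers, 19 and 19 had a promoter peak in the Thy1 libraries and 6 and 8 in the RS libraries, and their summed fold was 315 and 248 in Thy1 against 44.3 and 50.0 in RS. For 16 peritubular and smooth muscle markers the open promoters numbered 15 and 14 against 6 and 3, with summed folds of 232 and 154 against 27.1 and 13.5. For 13 Leydig markers they numbered 9 and 6 against 3 and 4 (121 and 79.1 against 33.8 and 24.8), for 14 endothelial markers 10 and 8 against 6 and 1 (70.5 and 55.6 against 24.9 and 4.88), and for 13 immune markers 5 and 4 against 1 and 0 (37.4 and 27.3 against 3.88 and 0). Set against the share of all promoters in Thy1, Sertoli (90.5% and 90.5%) and peritubular markers (93.8% and 87.5%) stood above it. Leydig (69.2% and 46.2%), endothelial (71.4% and 57.1%) and immune markers (38.5% and 30.8%) stood below it. In RS every one of these lists stood below the share of all promoters. The 32 housekeeping genes, for scale, summed to 768 and 584 in Thy1 and 430 and 316 in RS. Gata4, a Sertoli cell factor gene, had 12.7 and 14.2 in Thy1, Clu, for clusterin, 18.7 and 15.3, and the smooth muscle genes Acta2 and Myh11 27.1 and 14.2, and 24.1 and 13.1. None of these 4 had an RS peak. No peak in any of the 4 lists was found for 4 of 13 Leydig, 4 of 14 endothelial and 7 of 13 immune markers. Among these were the steroid enzyme genes Cyp11a1, Cyp17a1, Hsd3b1 and Hsd3b6, endothelial Pecam1 and immune Ptprc, Csf1r and Adgre1. The other members of these lists had a peak in at least 1 of the 4. The part of somatic cells in the Thy1-only counts was not tested.

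The markers of the labelled cells were counted in the same way. They are all members of the gene lists above, so the same genes are counted again and give no separate evidence. Of 11 round spermatid markers, 11 and 10 had a promoter peak in RS and 4 and 0 in Thy1, with summed folds of 128 and 104 against 18.7 and 0. Of 12 markers of Thy1+ spermatogonia, 9 and 8 had one in Thy1 and 5 and 5 in RS, with summed folds of 119 and 98.2 against 58.1 and 49.2. The Thy1 counts, 75% and 66.7% of the list, were near the share of all promoters with a Thy1 peak (74.7% and 69.8%). They do not set these markers apart from other genes in Thy1. In RS the list stood at 41.7% in each library, below the 60.8% and 56.8% of all promoters. At equal length 10 of the first list were RS-only, and none of the second was Thy1-only.

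Most housekeeping and Polycomb genes were common. Of 32 housekeeping genes, 30 were common and none RS-only or Thy1-only as deposited, and 28 were common at equal length. Of all promoters, 50.0% and 45.1% were common. Actb, for cytoplasmic actin, had 19.9, 17.7, 22.3 and 14.2. Gapdh, a glycolytic gene, had 4.43 and 4.88 in RS and 22.9 and 25.6 in Thy1. Of 32 genes of Polycomb complexes and partners of SCML2, 28 were common and 2, Phf19 and Pcgf2, Thy1-only as deposited. The core genes Ezh2, Eed and Suz12 were open in all 4, with 27.1, 18.0, 35.0 and 25.6 for Ezh2.

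**Figure D3:**
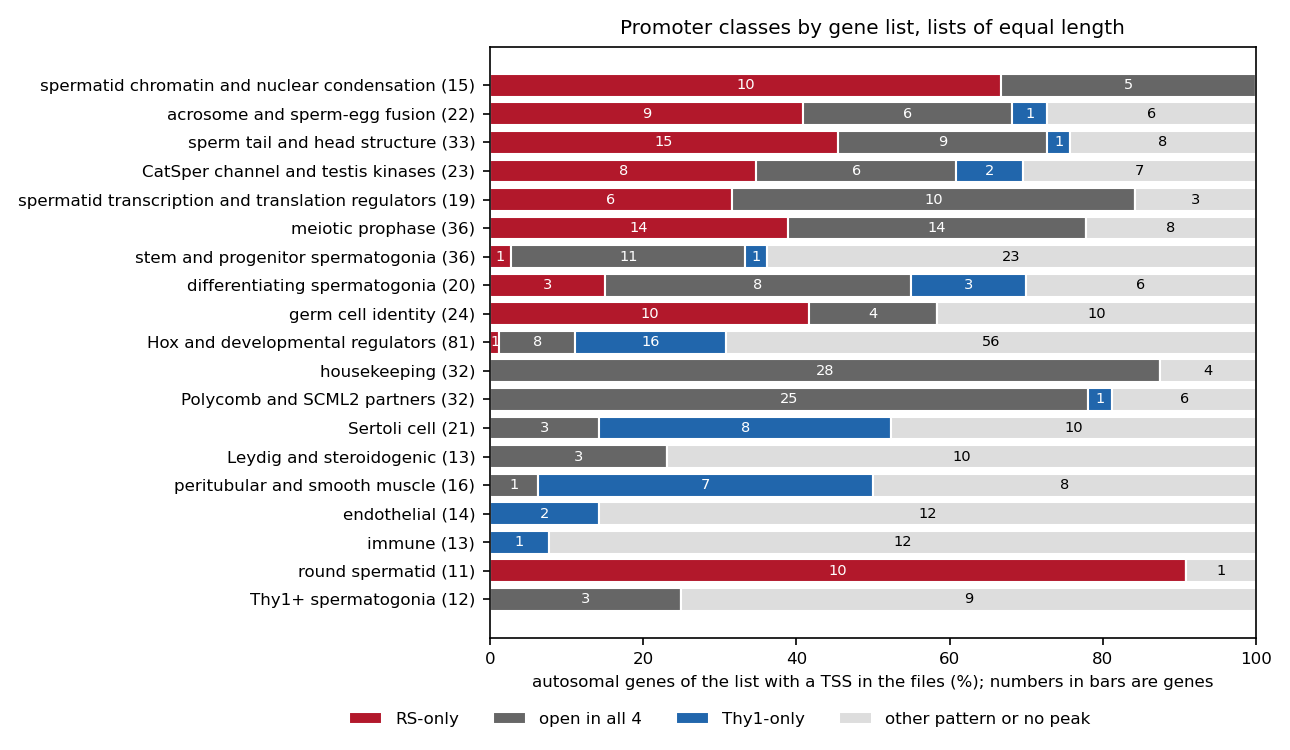
Share of each gene list in % (x axis, with gene counts in the bars) by promoter class at equal length, for the gene lists and cell type marker lists (y axis). Spermatid chromatin (10 of 15) and round spermatid markers (10 of 11) hold the largest RS-only shares, Sertoli and peritubular markers (8 of 21 and 7 of 16) and the developmental list (16 of 81) hold Thy1-only members, and housekeeping genes (28 of 32) are common. The markers of round spermatids and Thy1+ spermatogonia are also members of other lists drawn.

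To compare promoter sequence, the 300-base RefSeq windows were matched by gene symbol. A window was found for 352 of 480 RS-only promoters (73.3%), 1619 of 2284 Thy1-only (70.9%), 8188 of 10258 common (79.8%) and 15436 of all 20510 (75.3%). As a check of the whole classes the comparison is void, since under 80% were matched, and the values describe the matched promoters alone. The median CpG ratio, observed over that expected from base content, was 0.164 in RS-only, 0.459 in Thy1-only and 0.819 in common promoters, and 0.643 in all. A ratio under 0.6 was found in 335 RS-only promoters (95.2%), 1089 Thy1-only (67.3%) and 1350 common ones (16.5%), against 46.4% of all. The content of G and C was 49.0%, 56.3% and 62.7% in that order. At equal length the RS-only values moved towards the others, to a median CpG ratio of 0.295 and a share of 79.1% under 0.6, while Thy1-only promoters had 0.524 and 61.1%, and common promoters 0.828 and 14.2%. The order of the 3 classes was the same. Promoters outside these classes, with another pattern or no peak, were also poor in CpG. Their median ratio was 0.253 as deposited, with 83.1% under 0.6. At equal length it was 0.281, with 78.8% under 0.6, close to the RS-only values. A low CpG ratio is thus not particular to RS-only promoters.

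**Figure D4:**
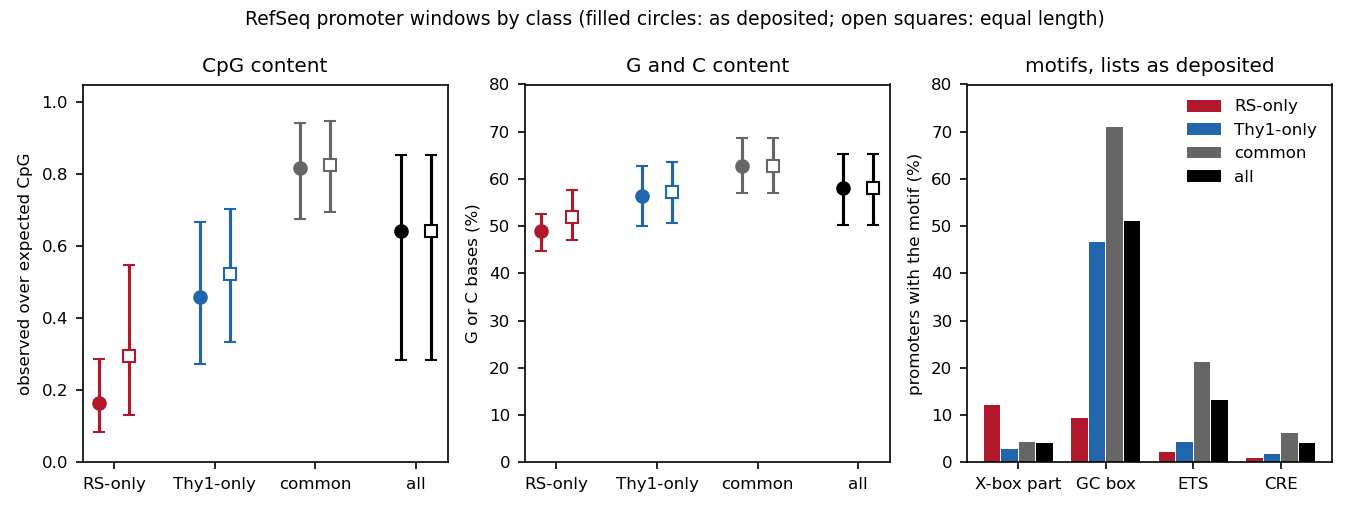
Median CpG ratio (left) and content of G and C in % (middle) of matched RefSeq promoter windows by class, as deposited (filled circles) and at equal length (open squares), and share of promoters in % with each of 4 motifs (right). Among the classes drawn, RS-only promoters have the lowest CpG ratio as deposited (0.164) and common promoters the highest (0.819). Promoters outside the classes, not drawn, have 0.253. GTTGCCA is in 12.2% of RS-only against 4.17% of all promoters.

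Each of the motifs named here was searched on both strands of the window, without regard to overlap with another motif. GTTGCCA stood in 43 of 352 RS-only promoters (12.2%), 2.90% of Thy1-only, 4.23% of common and 4.17% of all promoters. Among promoters with a CpG ratio under 0.6 the shares were 12.8%, 3.12%, 6.30% and 4.78%, and at equal length 10.3% of RS-only promoters held it. AACTGNC, a core that MYB factors bind, was in 18.5% of RS-only, 14.0% of Thy1-only and 12.3% of all promoters, but in 16.1% of all promoters with a low CpG ratio. TGACGTNA, the element of CREB and CREM, was in 3 RS-only promoters (0.852%), 1.85% of Thy1-only, 6.13% of common and 4.01% of all promoters. The GC box GGGCGG ran from 9.38% in RS-only through 46.7% in Thy1-only to 71.1% in common promoters, with 51.2% in all. CCGGAAG, an ETS site, was in 2.27%, 4.39% and 21.3%, with 13.2% in all. TGACGTNA, GGGCGG and CCGGAAG each hold a CpG, so their shares follow CpG content in part. Among promoters with a CpG ratio under 0.6, TGACGTNA was in 0.896% of RS-only and 1.76% of all. GGGCGG was in 7.76% and 23.8% of these, and CCGGAAG in 2.39% and 4.83%. At equal length the 3 motifs were in 1.54%, 23.4% and 6.67% of RS-only promoters. CCAAT hardly differed, with 39.2%, 36.6%, 39.6% and 38.2%.

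The regions were then followed through the stages between the ends. RS-only regions were mostly listed in pachytene spermatocytes and rarely in c-Kit+ spermatogonia. As deposited, 6673 of 7858 (84.9%) had a peak in at least 1 of the 2 wild-type spermatocyte lists and 2594 (33.0%) in both. The replicates differed, with 84.4% (95% Wilson interval 83.6 to 85.2) in replicate 1 and 33.6% (32.5 to 34.6) in replicate 2, whose list is shorter. In c-Kit+ cells 196 (2.49%) had a peak in at least 1 list and 10 in both. Equal-length lists gave 75.7% for at least 1 spermatocyte list and 4.59% for at least 1 c-Kit+ list. Distal and promoter regions gave nearly the same value, with 86.2% and 86.3% of RS-only regions in at least 1 spermatocyte list as deposited.

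Thy1-only regions were listed more in c-Kit+ cells than in spermatocytes. Of 41621, 27421 (65.9%) were in at least 1 c-Kit+ list, 11228 (27.0%) in both and 14200 (34.1%) in neither as deposited, with 64.1% in replicate 1 and 28.8% in replicate 2. In at least 1 spermatocyte list there were 4284 (10.3%). At equal length 76.8% were in at least 1 c-Kit+ list and 10.4% in at least 1 spermatocyte list. Here promoters and distal regions differed, with 1064 of 3781 (28.1%) of the TSS regions and 2429 of 30211 (8.04%) of the distal ones in a spermatocyte list. Common regions were listed in both spermatocyte lists in 89.6% and in both c-Kit+ lists in 87.5%, and 81.4% were listed in all 4 of these.

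Among promoters, 183 of the 480 RS-only ones (38.1%) were open in both spermatocyte lists, 254 in 1 and 43 in none. In c-Kit+ cells 453 (94.4%) were open in none, 27 in 1 and 0 in both. Of the 2284 Thy1-only promoters 1262 (55.3%) were open in both c-Kit+ lists and 1440 (63.0%) in no spermatocyte list. Prm1 had a peak in both spermatocyte libraries and in no c-Kit+ library, and Cxcr4 and Ccnd2 had the reverse. Tssk2 was listed in neither stage, and Thy1 and Nanos2 also had no peak in either stage.

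The Scml2 knockout libraries of the same 2 stages were not used to set the classes. Of the RS-only regions, 3357 (42.7%) had peaks in both knockout round spermatid libraries and neither knockout Thy1+ library, and 0 had the reverse pattern. Of the Thy1-only regions, 15039 (36.1%) were in both knockout Thy1+ libraries and neither knockout round spermatid library, and 20 (0.0481%) the reverse. At equal length the shares in the same direction were 45.0% and 55.1%. Knockout round spermatid replicate 1 held 7492 of the Thy1-only regions (18.0%) and replicate 2 held 1344 (3.23%).

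**Figure D5:**
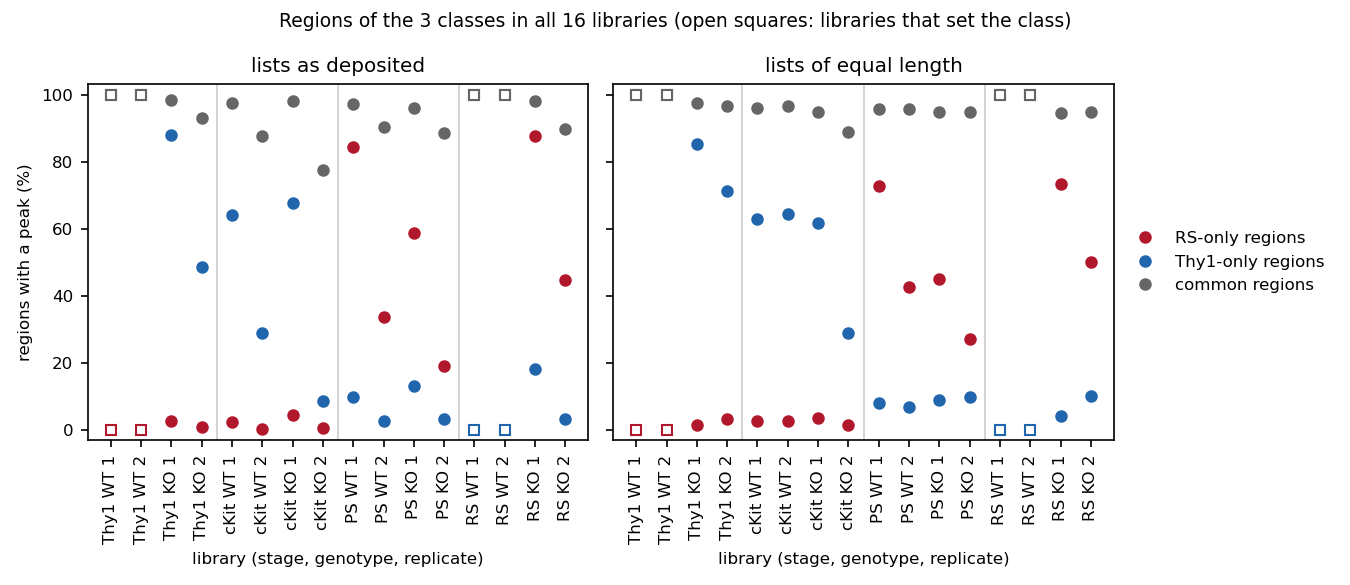
Share of RS-only, Thy1-only and common regions with a peak in % (y axis) in each of the 16 libraries (x axis), as deposited and at equal length; open squares are the 4 libraries that set the classes. RS-only regions are listed in 84.4% and 33.6% in wild-type pachytene spermatocytes and in 2.33% and 0.293% in wild-type c-Kit+ spermatogonia as deposited.

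Single distal regions, over 10 kb from any TSS, showed how far these patterns went. The strongest RS-only region lay in an intron of Bmp5, a growth factor gene, at chr9:75890718-75892099 (mm10), with folds of 36.0 and 32.7. The authors' annotation gives Gpr126, a receptor gene, for the region at chr10:14225920-14226833, with 36.0 and 29.3, whose nearest TSS is that of Hivep2 at 259.5 kb. It gives Dppa4 for chr16:46836347-46837454, with 37.1 and 26.7, whose nearest TSS is that of Pvrl3 at 339.4 kb. Another lay at chr1:128012672-128013945 in an intron of the helicase gene Zranb3, with 30.5 and 37.2. All 8 regions named by the rule were in both wild-type spermatocyte and both knockout round spermatid lists, and in no c-Kit+ or Thy1+ list of either genotype.

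The strongest Thy1-only distal region lay in an intron of Insr, the insulin receptor gene, at chr8:3220497-3221794, with folds of 44.0 and 43.1. It was also in both wild-type spermatocyte and both knockout round spermatid lists, as was a region at chr13:74522152-74523299 (33.2 and 33.8), 28.2 kb from the TSS of Zfp825 and given to Erap1 in the authors' annotation. A pair of regions on chromosome 1 had neither, at chr1:94034820-94035922 (31.4 and 30.5), 14.3 kb from the TSS of Neu4 and given to Pdcd1 by the authors, and at chr1:137898173-137899192 nearest to the microRNA gene Mir181a-1 (32.6 and 29.4). All 8 Thy1-only regions named by the rule were in both wild-type c-Kit+ and both knockout Thy1+ lists. By nearest TSS, some genes had many distal regions of 1 class, as deposited. Of the 47 distal regions nearest to AI429214, 20 were RS-only, and of the 41 nearest to Pole4 15 were RS-only and 0 Thy1-only. Of the 95 nearest to Tns3, 36 were Thy1-only and 0 RS-only, and Efnb2, an ephrin gene, had 31 and 0 of 94. The axon guidance receptor gene Robo1 had 36 Thy1-only and 7 RS-only of 120, but 11 and 11 of 52 at equal length.

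The RS-only share also differed by chromosome, from 3.24% of the regions on chromosome 7 to 6.28% on chromosome 18 as deposited. These are descriptions of the merged lists, with no test.

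Within the common regions, the order of peak strength differed between the stages. Ranks were compared as fold percentiles within the lists of equal length, over the 9491 common regions. Across these regions, which share a genome and a peak caller, Spearman's coefficient was 0.836 for the RS pair and 0.911 for the Thy1 pair, against 0.536 to 0.588 across stages. Both RS percentiles stood above both Thy1 percentiles in 2874 regions (30.3%), the reverse held in 3183 (33.5%), and the ranks overlapped in 3434 (36.2%). Percentiles in the lists as deposited gave 874 and 6799 of 11729, and the folds themselves 134 and 7240 of 9491, so the balance of the 2 directions depends on the scale and the equal-length ranks describe order only. The median shift was 12.7 percentile points in the first group and -16.2 points, RS minus Thy1, in the second. In the 836 distal common regions the shifts were larger, at 24.7 points in 248 regions and -24.5 points in 254.

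The same comparison on the 9246 common promoters gave 2858 with higher RS ranks (30.9%) and 3052 with higher Thy1 ranks (33.0%). Stat4, for a transcription factor of cytokine signalling, stood at the percentiles 85.3 and 84.8 in RS and 4.18 and 3.10 in Thy1, the widest gap on the RS side. Tcp11, a testis gene for sperm function, stood at 77.3 and 93.4 against 21.0 and 22.6, and H1f0, for a linker histone of non-dividing cells, at 66.8 and 76.0 against 12.9 and 12.1. On the Thy1 side Ppm1k, for a mitochondrial phosphatase, stood at 11.0 and 11.6 in RS and 98.8 and 99.4 in Thy1. Cst3, for the protease inhibitor cystatin C, stood at 11.0 and 11.6 against 89.8 and 92.7, and Fhl2, for a LIM domain cofactor, at 11.0 and 22.6 against 88.6 and 94.0.

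By list, common meiotic promoters had higher RS ranks in 8 and higher Thy1 ranks in 1 of 14 at equal length, and in 11 and 5 of 25 in the lists as deposited. Germ cell identity genes had 4 and 0 of 4, and 8 and 0 of 11 as deposited. Stem and progenitor genes had 2 and 4 of 11, and 1 and 10 of 14 as deposited. Of all common promoters, 30.9% ranked higher in RS and 33.0% in Thy1 at equal length. As deposited the common regions leaned to Thy1, with 874 and 6799 of 11729. The stem and progenitor counts are therefore not shown to be particular to that list. For other lists the order turned with the scaling, with acrosome genes at 5 and 1 of 6 against 0 and 4 of 7 as deposited, and housekeeping genes at 12 and 6 of 28 against 1 and 17 of 30. The strongest promoter common to all 4 lists was that of the ribosomal RNA gene Rn45s, with folds of 57.6, 68.4, 88.6 and 81.8. Whether reads from repeated sequence raised these folds was not tested. Bcl10, shown above, had 36.5, 34.6, 50.6 and 49.6, and Sel1l, for a protein of endoplasmic reticulum quality control, had 47.1, 31.2, 56.7 and 54.5.

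For a test over libraries, the wild-type and knockout libraries of each stage formed 1 group, 4 against 4, with the 26914 strongest peaks of each. Peaks within 1 kb of a TSS made up 41.4% ± 4.49 (SD, n = 4) in round spermatids and 43.7% ± 1.91 (SD, n = 4) in Thy1+ cells, a difference of -2.26 points (two-sided exact permutation test, p = 0.429, Benjamini-Hochberg adjusted over 4 values 0.429). The wild-type values were 39.6% and 43.0% in RS and 42.8% and 44.2% in Thy1. Intronic peaks were 20.3% ± 1.36 against 22.0% ± 1.18 (exact p = 0.114, adjusted 0.229). Intergenic peaks were 24.3% ± 4.33 against 21.1% ± 0.805 (exact p = 0.257, adjusted 0.343). The median peak length was 408 ± 186 bp in round spermatids and 609 ± 102 bp in Thy1+ cells (exact p = 0.114, adjusted 0.229). In all 4 measures the groups overlapped and the difference did not pass the test, of which the smallest possible p is 0.0286. Within the wild type the length difference was -294 bp and within the knockout -107 bp, with knockout round spermatid replicate 1 at 687 bp and the other 3 round spermatid libraries between 302 and 328 bp.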

How the data were processed

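Reads were aligned with Bowtie 1.1.1 to mm10 and peaks called with MACS2 2.1.0.20140616 per library, per the submitters' processing notes. Their options and thresholds: not given in the sources used here. Per the file headers, the authors deposited for each peak its pileup (signal, a read coverage at the summit), its fold enrichment (a ratio over local background), and the −log10 p-value and −log10 q-value. No reads or depths are given. Replicate numbers follow the sample titles; the names of the deposited files carry other replicate numbers, so a replicate number only names a library here.

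Lines with equal chromosome, start and end were joined into 1 peak, and peaks of the 4 lists that overlapped by 1 bp or more were merged. TSS positions (22676, for 20510 autosomal genes) were the transcript starts, by strand, in the authors' annotation. Of these genes, 1021 that were named only together with another gene were placed with the help of RefSeq. A further 284 genes without a position were left out. Promoters reach 1 kb to either side of a TSS, and distal means over 10 kb. Lists of equal length hold the 30929 peaks with the highest −log10 q-value, with ties drawn at random under a fixed seed. Percentiles are of fold enrichment within a list; it takes few distinct values (85 to 111 per list) and orders peaks as the −log10 q-value does.

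Wild-type counts carry no test. Library values were compared over 8 libraries by a two-sided exact permutation test (70 arrangements) with Benjamini-Hochberg adjustment over 4. Since nothing states that replicates are separate animals, each p-value reflects only the spread among these samples, which may be technical. Wilson intervals cover counting error only. Genes named were the 15 strongest promoters and 8 strongest distal regions per separated class, the 10 promoters and 5 distal regions strongest in all 4, the 8 widest rank shifts per direction, and up to 6 members per gene list, of which the text gives a selection. The genes of the promoter fold plot, the printed sequences and other genes were chosen after their values were seen. The comparison, the members and the lists were chosen with earlier results of these data known. The counting was tested on simulated data. Alternatives were lists of equal length, stricter peak thresholds, other windows and overlaps, the knockout libraries and leaving out each replicate. Tools were Python 3.11.15, numpy 2.4.6, pandas 2.3.3, scipy 1.17.1 and matplotlib 3.10.9.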

Additional observations from a re-analysis of the deposited data

Results flagged for a closer look

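Peaks on the X chromosome lie outside the autosomal comparison and were present in all 4 libraries: 409 and 124 in RS replicates 1 and 2, and 3096 and 1790 in Thy1 replicates 1 and 2. As a share of each list they were 0.781% and 0.399% in RS and 2.28% and 2.39% in Thy1. In the Scml2 knockout libraries they numbered 430 (0.262%) and 179 (0.660%) in round spermatids and 2477 (2.24%) and 1363 (2.62%) in Thy1+ cells. The RS shares lay below the Thy1 shares in both genotypes, with no overlap.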

How the results depend on the processing

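Of the recomputed values, 100 kept their direction and, for counts, stayed within 1.5 times of the reported value, 19 moved further and 5 reversed. At equal length the Thy1-only regions numbered 10813 of 65366 and the RS-only promoters 803. With −log10 q of 5 or more, and equally with fold of 5 or more, which kept the same peaks, there were 4311 RS-only and 22675 Thy1-only regions of 83236. Requiring peaks to cover 50% of a region left 6025 common regions. The knockout libraries gave 20074 Thy1-only regions of 243370 and 1052 Thy1-only promoters, and, at equal length (chosen after seeing the data), 7844 of 55848 and 1051. Ranks in the deposited lists gave 874 and 6799 of 11729 common regions, and folds themselves 134 and 7240. The TSS share turned to 9.70 points as deposited and 12.7 at fold of 5 or more, the intergenic share to -3.63 and -1.69, and the median length to 9.25 bp at fold of 5 or more, none past the test. The cause of these changes was not tested.

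Leaving out 1 replicate at a time gave 8060 to 28802 RS-only, 42691 to 110748 Thy1-only and 11926 to 16575 common regions, 498 to 788, 2391 to 3371 and 10276 to 11345 promoters, and 3527 to 3904 and 3835 to 4202 rank shifts. The 4 library differences ranged from -4.04 to -0.553 points (TSS), -2.35 to -1.26 (introns), 2.01 to 5.05 (intergenic) and -293 to -165 bp. The replicate numbers, taken from the sample titles, give only 2 pairs and are not stated to pair samples, and the deposited files are numbered differently. With a replicate block the rank shifts were 3417 and 3736, and the exact permutation test, whose smallest p was then 0.125, gave adjusted values of 0.25 for introns and median length, 0.33 for the TSS share and 0.375 for the intergenic share. It changed no call. Without read depths, a missing peak cannot be told from a shallow library.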

Other observations

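The 1-Mb windows with the most regions of a class were picked after the counts were seen and carry no test. The window of 134 to 135 Mb on chromosome 5 held 23 RS-only, 35 Thy1-only and 11 common regions as deposited, and 23, 4 and 9 at equal length. The window of 37 to 38 Mb on chromosome 8 held 20 RS-only, 1 Thy1-only and 2 common regions. On the Thy1 side, 19 to 20 Mb on chromosome 7 held 66 Thy1-only, 6 RS-only and 24 common regions.

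Of the 5 strongest distal regions common to all 4 libraries, a pair on chromosome 2, at chr2:98666178-98667393 and chr2:98662174-98663030 (mm10), had folds of 82.5, 58.2, 88.0 and 91.6, and of 73.1, 57.5, 82.0 and 92.7 in RS replicates 1 and 2 and Thy1 replicates 1 and 2. Another pair lay at chr1:24612984-24613249 and chr1:24612628-24612876, with 53.7, 48.5, 89.2 and 80.7 in the first. The fifth lay in an intron of Chl1 at chr6:103649007-103649350, with 59.3, 42.5, 65.7 and 72.0. All 5 had a peak in both libraries of every stage and genotype. Whether reads from repeated sequence raised these folds was not tested, so they are not shown to be open regulatory DNA.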
